A study of Homo sapiens with 6 samples.

Results

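The mitochondrial ribosomal protein genes were examined in HGC-27, an established line of human gastric cancer cells, with and without the peptide GLUP. Members were the protein-coding genes whose symbol is MRPL or MRPS followed by a number and at most 1 letter, and 78 of the 62443 genes of the table met this rule. The 3 Con libraries came from cells whose labels give no treatment, and the study's methods name the peptide's buffer as the control. The 3 GLUP libraries came from cells exposed to GLUP, a cyclic peptide modelled on the TEAD4-binding portion of VGLL4 and designed to bring TEAD4 molecules together. All 6 libraries were made from total RNA of the same line, so that they describe 1 established culture and not a set of tumours. The question addressed here was how the level of each of these transcripts compared between GLUP and Con.

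The mitochondrial ribosome translates the few proteins encoded by mitochondrial DNA, which are core subunits of the respiratory chain and of the ATP synthase. Its ribosomal RNAs are transcribed in the mitochondrion, whereas its proteins are encoded in the nucleus, made in the cytosol and imported. Many of these proteins descend from the bacterial ribosome and others were added during the evolution of mitochondria, and they share the large subunit, where peptide bonds form, and the small subunit, where the messenger RNA is decoded. Of the 78 genes, 51 encode proteins of the large subunit and 26 proteins of the small subunit. MRPS30 and MRPS18A are named after the small subunit and belong to the large one. MRPS36 is no longer counted as a ribosomal component, since its protein belongs to the 2-oxoglutarate dehydrogenase complex. Among the 77 others, 46 have a bacterial homologue and 31 are specific to mitochondria.

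To show what the promoters of such housekeeping genes look like, the 300 bases around the annotated start (250 before it and 50 from it on) were taken from RefSeq on GRCh38.p14, which held 69 of the 78 members. MRPS18A and MRPS18C are shown because the GLUP values of these paralogues lay on opposite sides of Con, MRPL22 because it had the lowest log2 fold change among the members whose groups did not overlap, and MRPS25 because it had the smallest p. Capitals mark 4 short words searched on both strands: CCGGAAG (ETS family), AAGATGGC (YY1), GCGCATGC (NRF1) and GGAATG (TEAD family, printed as CATTCC where it lies on the other strand). Each sequence reads 5′ to 3′ on the gene's own strand.
MRPS18A, chr6:43687742-43688041, minus strand: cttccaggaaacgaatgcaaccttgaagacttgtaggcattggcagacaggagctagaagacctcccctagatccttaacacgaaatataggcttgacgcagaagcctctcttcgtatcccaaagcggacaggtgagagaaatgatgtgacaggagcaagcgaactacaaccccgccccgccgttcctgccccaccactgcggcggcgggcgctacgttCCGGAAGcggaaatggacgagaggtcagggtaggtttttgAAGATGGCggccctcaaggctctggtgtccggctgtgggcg
MRPS18C, chr4:83455808-83456107, plus strand: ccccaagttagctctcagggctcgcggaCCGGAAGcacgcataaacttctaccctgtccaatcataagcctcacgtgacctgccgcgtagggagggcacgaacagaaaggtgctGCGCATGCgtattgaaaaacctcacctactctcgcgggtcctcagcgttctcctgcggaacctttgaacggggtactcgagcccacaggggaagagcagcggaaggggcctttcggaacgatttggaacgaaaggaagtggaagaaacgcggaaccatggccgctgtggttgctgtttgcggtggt
MRPL22, chr5:154940823-154941122, plus strand: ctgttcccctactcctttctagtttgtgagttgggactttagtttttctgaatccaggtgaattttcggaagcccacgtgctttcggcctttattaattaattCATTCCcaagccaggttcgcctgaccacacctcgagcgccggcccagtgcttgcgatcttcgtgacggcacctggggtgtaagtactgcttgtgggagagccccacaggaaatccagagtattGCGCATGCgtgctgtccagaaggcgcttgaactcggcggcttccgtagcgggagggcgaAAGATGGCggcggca
MRPS25, chr3:15065266-15065565, minus strand: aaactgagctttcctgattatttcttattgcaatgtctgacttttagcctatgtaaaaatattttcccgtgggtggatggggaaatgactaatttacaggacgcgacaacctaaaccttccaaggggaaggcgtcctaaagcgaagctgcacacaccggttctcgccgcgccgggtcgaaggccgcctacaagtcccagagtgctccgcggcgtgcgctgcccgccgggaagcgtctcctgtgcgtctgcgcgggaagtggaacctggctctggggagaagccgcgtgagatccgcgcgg

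In MRPS18A the ETS word lay at -31 to -25 and the YY1 word at 9 to 16, counted from the start as 1 with no position 0. In MRPS18C the ETS word lay at -222 to -216 and the NRF1 word at -136 to -129. MRPL22 held the NRF1 word at -24 to -17, the YY1 word at 35 to 42 and the TEAD word on the minus strand at -147 to -142. None of the 4 words was in the window of MRPS25. Across the members, the ETS word was in 29 of 69 windows (42.0%), compared with 10.7% of all 27305 promoters of this length and 23.5% of the 5408 tested genes with a window. The YY1 word was in 20 windows (29.0%, against 3.03% of all promoters and 7.21% of tested genes) and the NRF1 word in 6 (8.70%, against 3.27% and 6.62%). The TEAD word was in 10 windows (14.5%), against 14.0% of all promoters and 10.7% of tested genes. No word contains another, although the ETS and TEAD words share the letters GGAA, and a match is a description of the sequence and not a binding site.

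All 78 genes were expressed and all passed the minimum of a mean of 1 FPKM (fragment counts divided by gene length and by the library's total, so that levels of different genes compare per length). The median member had a mean of 46.5 FPKM over the 6 libraries. There were 14 members under 10 FPKM, 42 between 10 and 100 FPKM and 22 at 100 FPKM or more. MRPL13, a large-subunit protein with a bacterial homologue, was far above the others, with 5261, 5612 and 3805 FPKM in Con replicates 1, 2 and 3 and 3133, 3016 and 2883 FPKM in the GLUP replicates. MRPL51, a mitochondria-specific protein of the large subunit, followed with 1398, 916 and 1183 FPKM in Con replicates 1, 2 and 3 and 1029.9, 1149 and 1451 FPKM in the GLUP replicates. MRPL27, which reaches toward the peptidyl transferase centre, had 886, 1255 and 729.7 FPKM in Con replicates 1, 2 and 3 and 419, 599 and 776 FPKM in the GLUP replicates. The order of MRPL51 and MRPL27 was not the same in every library, since MRPL27 was the higher in Con replicate 2. Exons of MRPL51 share 27.6% of their bases with NCAPD2 on the other strand. At the low end stood MRPL23, MRPL39 and MRPL12. MRPL12, which forms the flexible stalk that recruits translation factors, had 7.05 FPKM in Con replicate 1, was listed at 0 in Con replicate 2 and had 3.46 FPKM in Con replicate 3, with 2.21, 3.09 and 3.42 FPKM in the GLUP replicates. These 3 low members, at mean levels of 3.69, 4.36 and 3.20 FPKM, overlapped one another in their values. The order of the members by level was much the same in both groups (Spearman rho 0.939 over 78 genes, as a description).

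The libraries themselves set the precision of what follows. Their FPKM totals ran from 909735 to 965147, and the number of reads behind them is unknown, so that no counting error can be given. Con replicate 2 stood apart in these genes: it was the highest of the 6 libraries in 28 members and the lowest in 36, or 82.1% of the members in all. The SD of a member on the log2(FPKM + 1) scale had a median of 0.47 over the Con libraries and 0.17 over the GLUP libraries (n = 3 each), and was larger in Con for 67 members. The same shares over all tested genes are not given here, so these counts are not read as particular to the members. MRPL42, a mitochondria-specific large-subunit protein singled out after its values were seen, had 356 FPKM in Con replicate 2 and between 11.8 and 25.7 FPKM in the other 5 libraries. The labelled cell type was checked against markers: the 8 stomach markers were under 1 FPKM in every library, EPCAM and CDH1 of epithelia reached at most 0.12 FPKM, and the mesenchymal VIM was at 222 to 387 FPKM, with CDH2 at most 0.05 and FN1 at 0.64 to 3.25 FPKM. The 3 mesenchymal markers summed to 336.8 to 390.5 FPKM in Con and 222.8 to 336.6 FPKM in GLUP. Of fibroblast markers, LUM was at 47.2 to 76.7 FPKM and the summed level of the 4 genes was 72.5 to 105 FPKM in Con and 80.0 to 104 FPKM in GLUP, while PTPRC of leukocytes and the 2 endothelial markers used were at or near 0. The summed 5 epithelial markers were at 2.97 to 3.70 FPKM in Con and 5.18 to 6.06 FPKM in GLUP. Their part in the results was not tested.

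**Figure D1:**
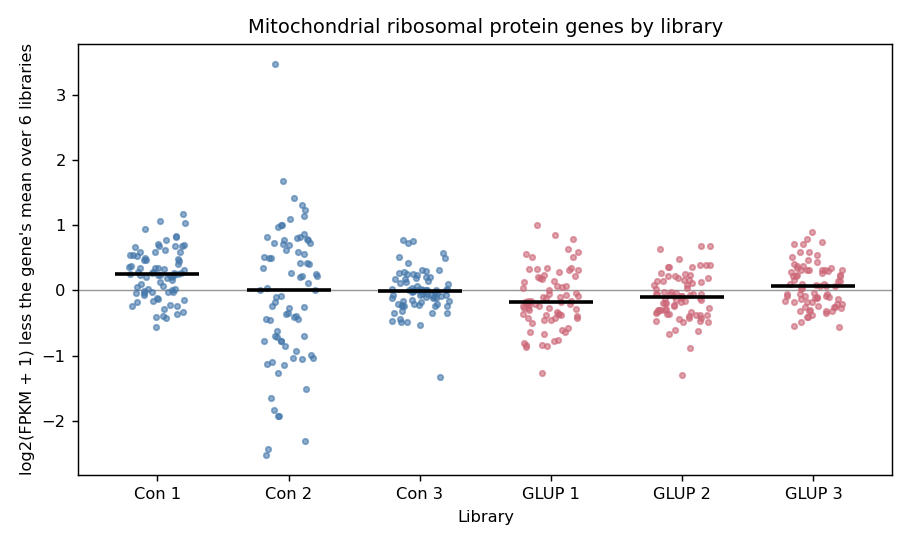
Level of each of the 78 genes (points) in each library (horizontal axis), as log2(FPKM + 1) less the gene's mean over the 6 libraries (vertical axis), with the median as a bar and Con in blue and GLUP in red. The points of Con replicate 2 are the most widely scattered, and this library is the highest or the lowest for 64 of the 78 genes.

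Summed over all members, their share of the FPKM total was lower in the GLUP libraries. Their summed level was 15064, 15136 and 12387 FPKM in Con replicates 1, 2 and 3 and 10184, 10963 and 12351 FPKM in the GLUP replicates. As shares of the library total these were 1.66%, 1.64% and 1.31% in Con and 1.09%, 1.15% and 1.28% in GLUP, so that the groups did not overlap. MRPL13 alone held much of this sum. Without it the shares were 1.08%, 1.03% and 0.908% in Con and 0.753%, 0.837% and 0.981% in GLUP, and the groups overlapped. In bulk RNA, fewer cells expressing a gene and less RNA per cell cannot be told apart.

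Gene by gene, 29 members had a higher mean in GLUP and 49 a lower one on the log2(FPKM + 1) scale, on which fold changes of low genes are understated. Their median log2 fold change, GLUP less Con, was -0.15, against -0.23 for all 7406 tested genes, of which 34.5% were higher. The scaling of the libraries moved this centre: after scaling by the trimmed mean of log ratios the median of all genes was -0.01 and that of the members 0.12, so that its sign turned, with 48 members higher and 30 lower. With the median of the 7406 tested genes as the reference, 46 members lay above and 32 below. No member reached an adjusted p under 0.05 with limma and Benjamini-Hochberg adjustment over all tested genes (0 of 78, smallest adjusted p = 0.194), and none of the 7406 tested genes did (0%). At an unadjusted p under 0.05, 6 members were higher (7.69%, against 4.46% of all tested genes) and 12 were lower (15.4%, against 17.2%). The balance turned after scaling by the trimmed mean of log ratios, with 11 higher (10.2% of all tested genes) and 3 lower (8.83%). More than 2-fold differences in means on the log2(FPKM + 1) scale were seen for 3 higher members (2.94% of all tested genes) and 6 lower members (6.81% of all tested genes). Without Con replicate 2 they were seen for 1 higher (0.837% of all tested genes) and 1 lower member (3.02%).

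The 3 GLUP values lay entirely above the 3 Con values for 11 members (14.1%, against 7.55% of all tested genes) and entirely below them for 19 (24.4%, against 22.7%). The 11 were MRPS25, MRPL10, MRPL49, MRPS34, MRPS2, MRPL54, MRPL52, MRPS18A, MRPL43, MRPL9 and MRPS24. After scaling by the trimmed mean of log ratios the counts were 14 above (14.3% of all tested genes) and 10 below (14.4%). Leaving out Con replicate 2 gave 11 above (9.21% of all tested genes) and 25 below (28.7%). Leaving out Con replicate 3 brought 17 members past an adjusted p of 0.05 with limma, 5 of them higher (against 2.2% of all tested genes) and 12 lower (against 16.3%). The 5 were MRPS25, MRPL10, MRPL49, MRPS34 and MRPS2. No other library had this effect when left out. With 3 samples per group an exact permutation test cannot give a p under 0.1.

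**Figure D2:**
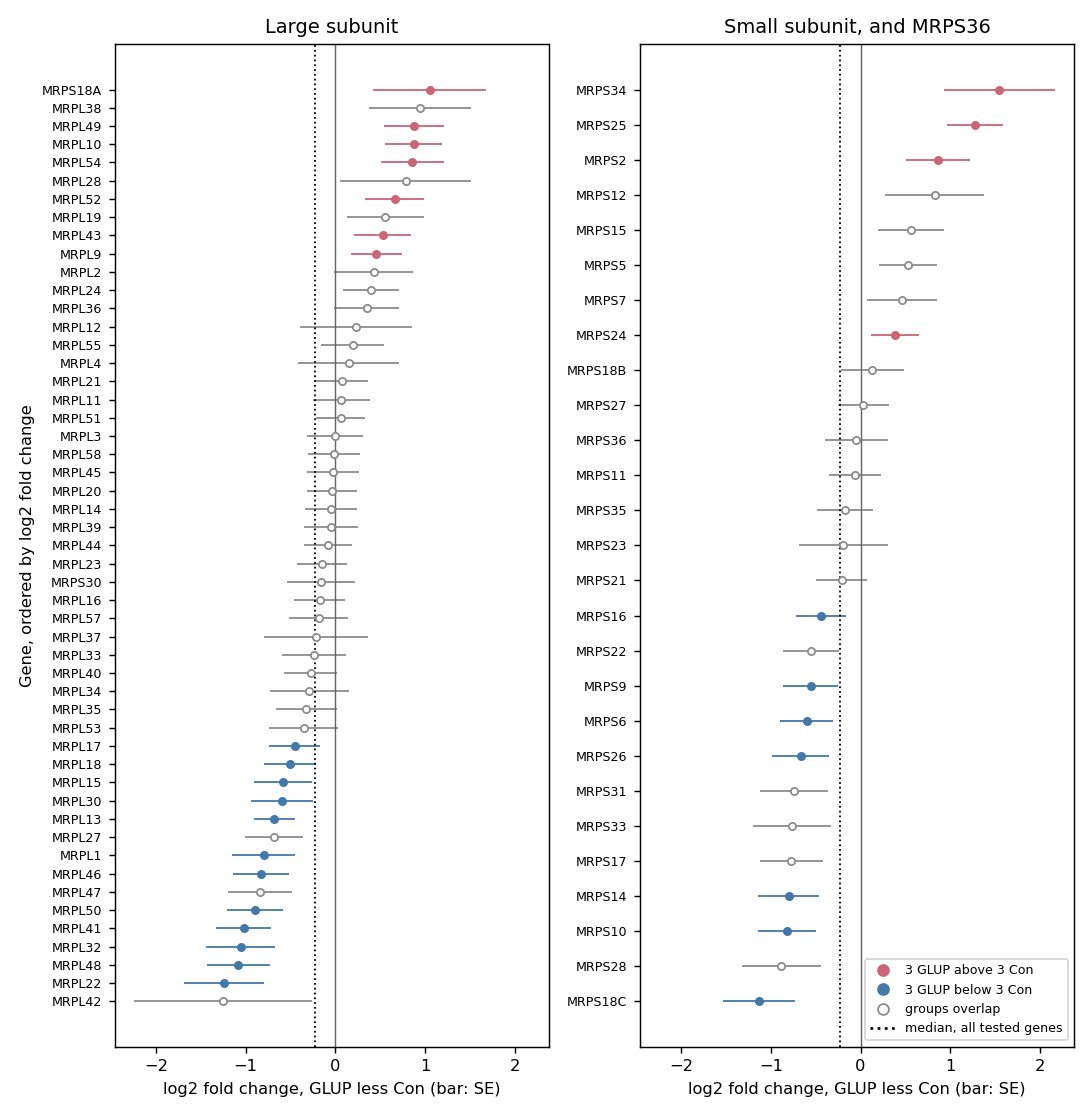
Log2 fold change, GLUP less Con, of each of the 78 genes as deposited, with SE bars, in the large subunit and in the small subunit with MRPS36. Filled points mark the 11 genes whose 3 GLUP values were all above (red) and the 19 whose values were all below (blue) the 3 Con values. The dotted line is the median of all tested genes, -0.23, which scaling by the trimmed mean of log ratios moves to -0.01.

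Among the members above Con, the small-subunit protein MRPS25 had the smallest p. MRPS25, a mitochondria-specific protein encoded at chr3:15051118-15106846 (GRCh37, as all gene positions here), had 19.9, 11.5 and 18.7 FPKM in Con replicates 1, 2 and 3 and 38.6, 40.8 and 42.9 FPKM in the GLUP replicates. The lowest GLUP library stood at nearly double the highest Con library. Its log2 fold change was 1.27 ± 0.31 (SE, n = 3 per group) with adjusted p = 0.194 (limma), or 1.503 when the median of the 7406 tested genes is subtracted, and 1.04 without Con replicate 2. MRPS34, a further mitochondria-specific protein of the small subunit at chr16:1821891-1823151, had 32.7, 7.29 and 62.7 FPKM in Con replicates 1, 2 and 3 and 79.7, 70.8 and 75.7 FPKM in the GLUP replicates. Its Con libraries ranged widely and its GLUP libraries were close together. The log2 fold change was 1.55 ± 0.62 (SE, n = 3 per group) with adjusted p = 0.203 (limma), and 0.72 without Con replicate 2.

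MRPL10, the protein that carries the stalk of the large subunit (chr17:45900638-45908907), had 4.02, 2.16 and 5.31 FPKM in Con replicates 1, 2 and 3 and 8.78, 7.07 and 6.83 FPKM in the GLUP replicates. MRPL49, a mitochondria-specific large-subunit protein (chr11:64889655-64894843), had 3.35, 1.32 and 4.40 FPKM in Con replicates 1, 2 and 3 and 6.35, 5.76 and 5.81 FPKM in the GLUP replicates. In both, every GLUP library was above every Con library and Con replicate 2 was the lowest. Their log2 fold changes were 0.88 ± 0.32 (SE, n = 3 per group) and 0.88 ± 0.34 (SE, n = 3 per group), with adjusted p = 0.198 and adjusted p = 0.199 by limma. Without Con replicate 2 they were 0.60 and 0.52. The exons of MRPL49 share 11.6% of their bases with SYVN1 on the other strand, a gene at 92.6 FPKM, and because strand-specific counting is not stated their reads cannot be told apart.

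Among the members below Con, MRPL41 had the smallest p. MRPL41, a mitochondria-specific protein of the large subunit encoded at chr9:140446331-140447007, had 13.9, 14.7 and 9.35 FPKM in Con replicates 1, 2 and 3 and 4.15, 6.34 and 6.63 FPKM in the GLUP replicates. No GLUP library reached a Con library. The log2 fold change was -1.02 ± 0.31 (SE, n = 3 per group) with adjusted p = 0.194 (limma), and -0.91 without Con replicate 2. MRPL48, a mitochondria-specific protein of the large subunit (chr11:73498917-73576178), had 85.7, 114 and 57.7 FPKM in Con replicates 1, 2 and 3 and 31.1, 35.2 and 52.2 FPKM in the GLUP replicates. The log2 fold change was -1.08 ± 0.35 (SE, n = 3 per group) with adjusted p = 0.194 (limma). Con replicate 3 and GLUP replicate 3 were the neighbours across the gap.

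MRPL50, a mitochondria-specific protein of the large subunit (chr9:104149915-104160900), had 77.1, 67.4 and 43.9 FPKM in Con replicates 1, 2 and 3 and 34.2, 31.8 and 31.6 FPKM in the GLUP replicates. Its GLUP libraries were nearly equal, and its log2 fold change was -0.89 ± 0.31 (SE, n = 3 per group) with adjusted p = 0.198 (limma). MRPL13 (chr8:121393000-121457642), the most abundant member, had means of 4893 ± 958 FPKM in Con and 3011 ± 125 FPKM in GLUP (SD, n = 3 each). Its log2 fold change was -0.68 ± 0.23 (SE, n = 3 per group) with adjusted p = 0.197 (limma), and its values, given above, did not overlap between the groups.

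**Figure D3:**
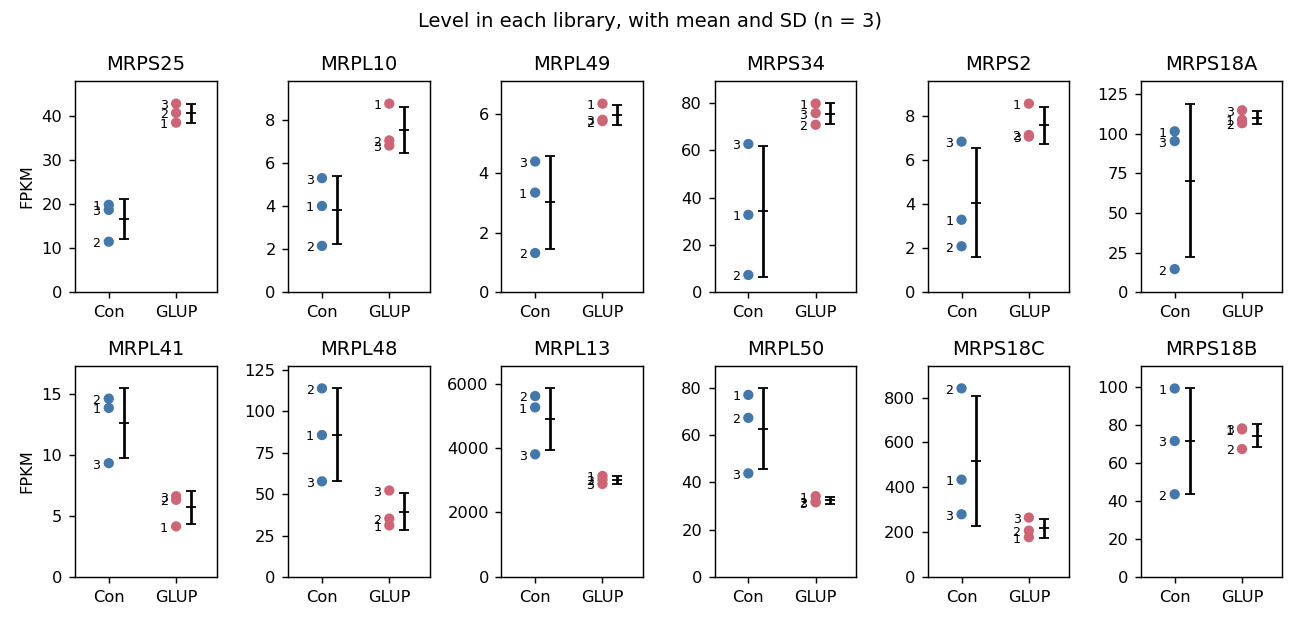
Level in FPKM (vertical axes, each from 0) of 12 genes in each library (points, numbered by replicate), with the mean and SD of each group (n = 3). The upper row shows genes whose GLUP values all lie above the Con values, the first 5 genes of the lower row those whose GLUP values all lie below, and MRPS18B overlaps.

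The 3 paralogues of the S18 protein offered a comparison within 1 family. MRPS18A sits in the large subunit, MRPS18B is a mitochondria-specific part of the small subunit and MRPS18C takes the place of the bacterial S18 protein. MRPS18A had 101, 14.6 and 95.2 FPKM in Con replicates 1, 2 and 3 and 109, 106 and 115 FPKM in the GLUP replicates. Con replicate 2 lay far below the rest, the other 2 Con libraries lay just under the GLUP libraries, and the log2 fold change of 1.05 ± 0.63 (SE, n = 3 per group), with adjusted p = 0.313 (limma), was 0.16 without Con replicate 2. MRPS18C had 434, 841 and 279 FPKM in Con replicates 1, 2 and 3 and 177, 206 and 265 FPKM in the GLUP replicates. Con replicate 2 was here the highest library, Con replicate 3 lay just above GLUP replicate 3, and the log2 fold change was -1.13 ± 0.40 (SE, n = 3 per group) with adjusted p = 0.198 (limma), or -0.71 without Con replicate 2. The groups of MRPS18C overlapped after scaling by the trimmed mean of log ratios. MRPS18B overlapped between the groups, with 99.4, 43.6 and 71.7 FPKM in Con replicates 1, 2 and 3 and 77.8, 67.4 and 78.3 FPKM in the GLUP replicates and a log2 fold change of 0.13 ± 0.35 (SE, n = 3 per group), which was -0.18 without Con replicate 2. Processed copies of MRPS18C exist in the genome, and how the counting divided their reads is not stated.

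By role, the 5 proteins listed around the decoding site and the path of the messenger RNA (MRPS2, MRPS5, MRPS7, MRPS12 and MRPS24) all had a higher mean in GLUP. This held as deposited and under both other scalings. The list was a selection: of all 26 small-subunit members, 10 had a higher and 16 a lower mean on the log2(FPKM + 1) scale. The 5 listed had a median log2 fold change of 0.53, or 0.31 without Con replicate 2, and 2 of the 5 lay entirely above Con (7.55% of all tested genes). These were 4 of 5 after scaling by the trimmed mean of log ratios (14.3% of all tested genes) and 3 of 5 with the trend in GC content and length removed (14.5%). MRPS2 had 3.29, 2.09 and 6.84 FPKM in Con replicates 1, 2 and 3 and 8.57, 7.14 and 7.07 FPKM in the GLUP replicates. Its log2 fold change was 0.87 ± 0.36 (SE, n = 3 per group) with adjusted p = 0.208 (limma), or 0.56 without Con replicate 2. Con replicate 3 lay within a fraction of an FPKM of the lowest GLUP library. MRPS24, the counterpart of the bacterial S3 protein, had 187, 171 and 216 FPKM in Con replicates 1, 2 and 3 and 229, 249.7 and 268 FPKM in the GLUP replicates and a log2 fold change of 0.38 ± 0.27 (SE, n = 3 per group). MRPS12, which monitors the match of codon and anticodon, had 181, 38.7 and 201 FPKM in Con replicates 1, 2 and 3 and 187, 197 and 219 FPKM in the GLUP replicates. There, only Con replicate 2 lay far from the rest, and the log2 fold change of 0.83 was 0.07 without it. MRPS7 showed the same, at 0.47 with all libraries and 0.02 without Con replicate 2, and MRPS5 was at 0.53 and 0.35.

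Of the 8 proteins of the catalytic core and stalk base (MRPL2, MRPL3, MRPL4, MRPL10, MRPL11, MRPL12, MRPL16 and MRPL27), 5 had a higher and 3 a lower mean on the log2(FPKM + 1) scale as deposited. Of these 5, MRPL4 and MRPL12 had a lower mean FPKM in GLUP (11.96 against 13.70 in Con, and 2.90 against 3.50). In both, Con replicate 2 was the lowest library. After scaling by the trimmed mean of log ratios, 7 had a higher mean on the log2 scale. MRPL10 alone had groups that did not overlap. MRPL2, at the peptidyl transferase centre, had 22.02, 7.77 and 29.00 FPKM in Con replicates 1, 2 and 3 and 25.6, 21.4 and 23.6 FPKM in the GLUP replicates. Its log2 fold change of 0.43 became -0.10 without Con replicate 2. MRPL4, which lines the exit tunnel, had 18.8, 2.93 and 19.3 FPKM in Con replicates 1, 2 and 3 and 11.6, 13.5 and 10.8 FPKM in the GLUP replicates. Its value went from 0.15 to -0.64. MRPL11, at the base of the stalk, MRPL3 and MRPL16, which flank the catalytic centre, had log2 fold changes of 0.07, -0.0045 and -0.17, all smaller than their SE of 0.32, 0.31 and 0.29. MRPL27 had a log2 fold change of -0.69 ± 0.32 (SE, n = 3 per group) with adjusted p = 0.245 (limma), and GLUP replicate 3 overlapped the Con libraries.

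Around the exit of the tunnel and the inner membrane, 3 of 4 proteins had a lower mean as deposited and 1 after scaling by the trimmed mean of log ratios. MRPL22, which lines the tunnel, had 173, 485 and 147 FPKM in Con replicates 1, 2 and 3 and 96.8, 80.99 and 118 FPKM in the GLUP replicates. All GLUP libraries were below all Con libraries, Con replicate 2 was the highest by far, and the log2 fold change was -1.24 ± 0.44 (SE, n = 3 per group) with adjusted p = 0.198 (limma), or -0.71 without that library. MRPL45, which tethers the ribosome to the membrane, was at -0.03 ± 0.29 (SE), MRPL23, beside the tunnel exit, at -0.14 ± 0.28, and MRPL24 at 0.40 ± 0.32 (0.15 without Con replicate 2). None of these 3 was separated between the groups.

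A further 5 mitochondria-specific proteins of the large subunit, MRPL37, MRPL40, MRPL44, MRPL51 and MRPL58, overlapped between the groups. MRPL37 had 230.3, 37.7 and 188 FPKM in Con replicates 1, 2 and 3 and 109.7, 101 and 95.1 FPKM in the GLUP replicates. A log2 fold change of -0.22 with all libraries became -1.03 without Con replicate 2. MRPL58, a peptidyl-tRNA hydrolase built into the ribosome, had a log2 fold change of -0.01 ± 0.29, MRPL44, which has a ribonuclease-like fold, -0.08 ± 0.27, MRPL51 0.06 ± 0.27 and MRPL40 -0.27 ± 0.29 (SE). In the small subunit, MRPS25 and MRPS34 were separated as described, whereas MRPS22 (log2 fold change -0.55 ± 0.31, or -0.34 without Con replicate 2), MRPS27, an RNA-binding protein with pentatricopeptide repeats (0.03 ± 0.28), and MRPS35 (-0.17 ± 0.31) overlapped. Exons of MRPS22 share 38.9% of their bases with COPB2 on the other strand. MRPL39 was at -0.05 ± 0.30 and MRPL12 at 0.23 ± 0.62.

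Subunit and ancestry were compared over all members. The large subunit had 19 higher and 32 lower members with a median log2 fold change of -0.08, and the small subunit 10 higher and 16 lower members with a median of -0.20. Groups that did not overlap were found for 7 higher and 12 lower members of the large subunit and for 4 higher and 7 lower members of the small subunit (7.55% and 22.7% of all tested genes). After scaling by the trimmed mean of log ratios these counts were 7 and 7 in the large and 7 and 3 in the small subunit (14.3% and 14.4% of all tested genes). Members with a bacterial homologue and mitochondria-specific members both had a median of -0.16, with 4 higher and 14 lower non-overlapping members among the 46 former and 7 higher and 5 lower among the 31 latter. This contrast in lower members was not kept: the counts were 7 and 6 against 7 and 4 after that scaling, and 6 and 5 against 8 and 4 with the trend in GC content and length removed. All 4 medians turned positive after scaling by the trimmed mean of log ratios (0.18, 0.09, 0.11 and 0.13 in this order).

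The difference between GLUP and Con followed the base composition of the transcripts. Over the 78 members, the log2 fold change and the GC content of the canonical transcript had a Spearman rho of 0.544, close to the 0.555 over all tested genes with a transcript sequence, where the points share the same 6 libraries. Among the 26 members with the lowest GC content (up to 44.6%), 2 had a higher and 24 a lower mean on the log2(FPKM + 1) scale, with a median log2 fold change of -0.64. Among the middle 26 the numbers were 9 and 17, with a median of -0.11, and among the 26 with the highest GC content (52.3% and more) 18 and 8, with a median of 0.41. These 3 medians were -0.35, -0.14 and 0.01 without Con replicate 2, and -0.36, 0.18 and 0.70 after scaling by the trimmed mean of log ratios, so that the middle one changed sign there. The median GC content was 55.7% for the 11 members above Con and 44.1% for the 19 below, against 47.2% for all tested genes. MRPL41, below Con at a GC content of 66.7%, was the highest in GC of all members. In single libraries, the deviation of the members from their means had a rho with GC content of -0.13, -0.65 and 0.66 in Con replicates 1, 2 and 3 and of 0.36, 0.59 and 0.56 in the GLUP replicates. Without Con replicate 2 the rho of the fold change was 0.216.

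To see which separations were left, the loess trend in GC content and length was taken out of each library, without use of the groups. The 3 GLUP values then lay above Con for 15 members (against 14.5% of all tested genes) and below for 9 (against 13.7%). All 11 members that were above as deposited remained so, and 8 of the 19 below did: MRPL41, MRPL48, MRPL32, MRPL46, MRPS10, MRPS26, MRPS6 and MRPL18. Of the 78 members, 62 kept the sign of their log2 fold change. MRPS25 had 1.57 ± 0.28 (SE), MRPL10 0.78 ± 0.21, MRPL49 0.83 ± 0.24 and MRPL41 -1.38 ± 0.37. By contrast, MRPL13 went to -0.11 ± 0.18, MRPL50 to -0.23 ± 0.21 and MRPS18C to -0.47 ± 0.25, and their groups overlapped. Scaling by the trimmed mean of log ratios alone gave -0.38, -0.59 and -0.83 for these 3. With the trend removed, the medians of the 3 GC classes came to -0.14, 0.02 and 0.29. No member had an adjusted p under 0.05 in this fit either (10 higher and 6 lower at an unadjusted p under 0.05 with limma, against 8.97% and 9.18% of all tested genes).

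**Figure D4:**
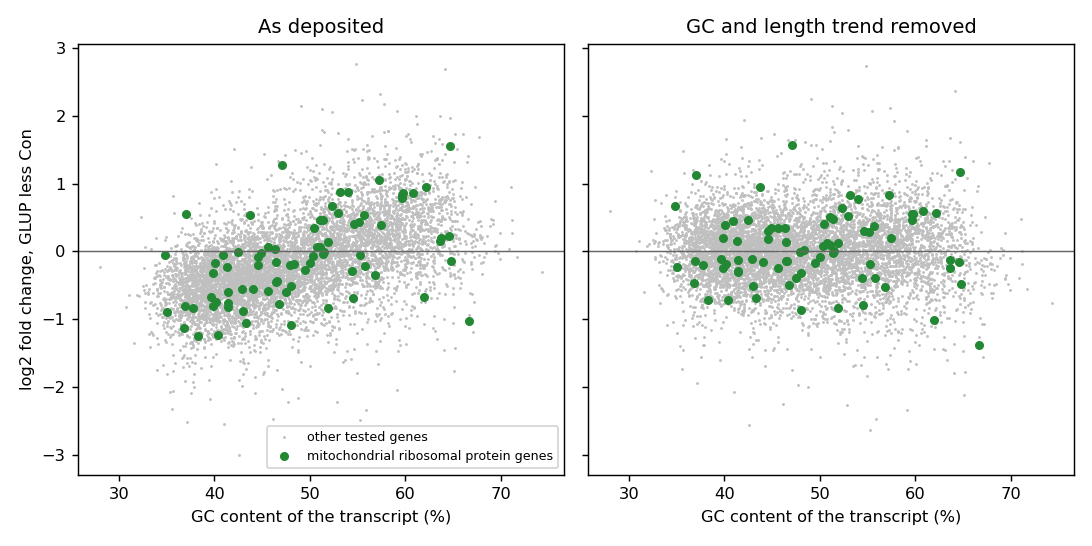
Log2 fold change, GLUP less Con (vertical axis), against the GC content of the transcript in percent (horizontal axis) for the 78 genes (green) and the other tested genes (grey), as deposited (left) and with the trend in GC content and length removed from each library (right). The Spearman rho over the 78 genes is 0.544 on the left and 0.105 on the right.

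The promoter words were set beside the direction. Among the 10 members above Con that had a promoter window, 5 held the ETS word, 3 the YY1 word, 1 the NRF1 word and 2 the TEAD word. Among the 17 below Con, 6 held the ETS word, 5 the YY1 word, 4 the NRF1 word and 2 the TEAD word. MRPS18A and MRPS18C, whose sequences are printed above, both held the ETS word. These counts describe the windows only.

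Mitochondrial ribosomal proteins that carry other names were followed too. AURKAIP1, a small-subunit protein first described as a partner of Aurora kinase A, had 31.99, 4.93 and 57.8 FPKM in Con replicates 1, 2 and 3 and 94.6, 63.9 and 66.96 FPKM in the GLUP replicates. All GLUP libraries were above all Con libraries, with a log2 fold change of 1.73 ± 0.70 (SE, n = 3 per group) and adjusted p = 0.204 (limma), or 0.77 without Con replicate 2. PTCD3, a small-subunit protein with pentatricopeptide repeats, had 15.3, 28.2 and 8.28 FPKM in Con replicates 1, 2 and 3 and 7.93, 6.60 and 7.20 FPKM in the GLUP replicates. All GLUP libraries were below all Con libraries, with a log2 fold change of -0.997 ± 0.40 (SE, n = 3 per group) and adjusted p = 0.204 (limma), or -0.58 without Con replicate 2. DAP3, the GTP-binding protein of the small subunit, CHCHD1, of the small subunit, and GADD45GIP1, of the large subunit, had log2 fold changes of -0.01 ± 0.28, -0.16 ± 0.30 and -0.17 ± 0.29 (SE), and overlapped.

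Genes that work with the mitochondrial ribosome were counted in the same fit, and none passed an adjusted p of 0.05 with limma. Without Con replicate 3, 1 higher and 4 lower assembly factors and 3 lower translation factors passed it (2.2% higher and 16.3% lower of all tested genes). Of 23 assembly factors 21 were tested. All GLUP values were above Con for 2 and below for 6 (7.55% and 22.7% of all tested genes), but above for 7 and below for 2 after scaling by the trimmed mean of log ratios (14.3% and 14.4%). They had a median log2 fold change of -0.13 (0.11 after scaling by the trimmed mean of log ratios). Of them, 1 was higher and 4 were lower at an unadjusted p under 0.05 (4.46% and 17.2% of all tested genes). MALSU1, which keeps the subunits apart during assembly, was at -1.09 ± 0.31 (SE, n = 3 per group), MPV17L2, an inner-membrane protein, at 1.30 ± 0.46 (SE, n = 3 per group) or 0.72 without Con replicate 2, and NGRN, which acts on the large ribosomal RNA, at -0.87 ± 0.32 (SE, n = 3 per group). Of 16 translation factors and regulators 12 were tested, with 0 above and 3 below Con (7.55% and 22.7% of all tested genes). After scaling by the trimmed mean of log ratios these counts were 1 and 1 (14.3% and 14.4%). Their median of -0.50 kept its sign under this scaling (-0.27). At an unadjusted p under 0.05, 0 were higher and 4 lower (4.46% and 17.2% of all tested genes). TACO1, the activator of COX1 synthesis, had the smallest p, at -0.95 ± 0.31 (SE, n = 3 per group), followed by the initiation factor MTIF3 at -0.90 ± 0.35 (SE, n = 3 per group) and SLIRP, which stabilises mitochondrial messenger RNAs, at -0.65 ± 0.27 (SE, n = 3 per group) or -0.34 without Con replicate 2.

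The 61 nuclear subunits of the respiratory complexes, partners of the proteins made on this ribosome, had 5 members above and 10 below Con (7.55% and 22.7% of all tested genes), 7 and 6 after scaling by the trimmed mean of log ratios (14.3% and 14.4%) and 8 and 8 with the GC trend removed (14.5% and 13.7%). They had a median log2 fold change of -0.15 (0.15 after that scaling). Of them, 4 were higher and 8 lower at an unadjusted p under 0.05 (4.46% and 17.2% of all tested genes). The 3 with the smallest p were all subunits of complex I, namely NDUFS3 at -1.60 ± 0.35 (SE, n = 3 per group), NDUFA12 at -1.61 ± 0.45 (SE, n = 3 per group) or -1.07 without Con replicate 2, and NDUFB8 at -0.73 ± 0.23 (SE, n = 3 per group). Among the 77 cytosolic ribosomal protein genes, 56 had a higher mean, 25 lay above and 3 below Con (7.55% and 22.7% of all tested genes), and their median log2 fold change was 0.22 as deposited, 0.52 under the other scaling and 0.40 with the GC trend removed. Under that scaling 37 lay above and 0 below Con (14.3% and 14.4%). At an unadjusted p under 0.05, 18 were higher and 1 was lower (4.46% and 17.2% of all tested genes). Without Con replicate 3, 1 higher and 7 lower respiratory subunits had an adjusted p under 0.05 with limma. So did 10 higher cytosolic ribosomal protein genes (2.2% higher and 16.3% lower of all tested genes). RPL41 at 1.10 ± 0.22 (SE, n = 3 per group), RPL27A at 1.34 ± 0.30 (SE, n = 3 per group) and RPLP1 at 1.41 ± 0.36 (SE, n = 3 per group) had the smallest p. The difference between the cytosolic and the mitochondrial lists was not tested.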

How the data were processed

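RNA sequencing of HGC-27 cells gave 6 libraries: 3 Con and 3 GLUP libraries, grouped by their titles and treatment labels. The authors deposited 1 table of FPKM values per gene. The submitters' processing notes name HISAT2, Cufflinks and RSEM, without roles or versions, and the genome build GRCh38.p10, whereas the gene identifiers carry the suffix of a GENCODE annotation lifted to GRCh37. Which of these the values rest on is not settled. FPKM carries no read counts, so that count tests and counting intervals were not used and the depth is unknown. The table held 62492 rows, of which 49 pseudoautosomal copies (all at 0) were summed with their counterparts, leaving 62443 genes, 62162 of them named from a table of Ensembl identifiers. GENCODE release 44, in its version lifted to GRCh37, gave positions, biotypes and the canonical transcript, whose length and base composition were computed (98.3% of tested genes).

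Values were transformed to log2(FPKM + 1), with a pseudocount of 1. The 7406 genes whose mean reached 1 FPKM were fitted with limma 3.58.1 in R 4.3.3 (lmFit, eBayes with trend), two-sided, with no further term, and p-values were adjusted (Benjamini-Hochberg) over the 7406. The methods speak of biological replicates without describing each library, so p-values measure the spread between these samples. Members and gene lists were chosen with earlier results of these data known, and no list was tested as a set. Genes were named by role, by smallest p among members whose groups did not overlap (5 per direction), by the 3 highest and 3 lowest levels, and by smallest p (at most 3) for related lists. Alternatives were a pseudocount of 0.1, no filter, a minimum of 5 FPKM, scaling by the trimmed mean of log ratios (30% of ratios and 5% of levels trimmed) or to the median, subtraction from each library of a loess curve on GC content and length (span 0.5), eBayes without trend, the replicate number as a block, and each library left out. The fit was tested on simulated data. Python 3.11.15, pandas 2.3.3, numpy 2.4.6, scipy 1.17.1 and matplotlib 3.10.9 were used.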

Additional observations from a re-analysis of the deposited data

How the results depend on the processing

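With 3 libraries per group and a scattered Con group, no member reached an adjusted p under 0.05 with limma over all libraries. The groups did not overlap for 11 members above and 19 below Con (7.55% and 22.7% of all tested genes). FPKM hides the depth, and reads of overlapping genes or processed copies cannot be assigned here. Limits were set for a move (1.5 times, or the spread of 0.11). They covered the counts of members by p and by non-overlap, and both medians. A pseudocount of 0.1, a minimum of 5 FPKM and eBayes without trend kept all of these within the limits. The count of more than 2-fold differences was not covered. With a pseudocount of 0.1, MRPL10, MRPL12, MRPL49 and MRPS2 were also more than 2-fold higher (log2 fold changes of 1.04, 1.11, 1.11 and 1.04). The lower members MRPL41, MRPL48, MRPS18C and MRPL22 stayed more than 2-fold lower. Without a filter, the median of the members less that of all tested genes was -0.14, against 0.08. The members' own median stayed at -0.15, so that it was the median of all tested genes that moved. Where a value moved, the cause was not tested.

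Scaling by the trimmed mean of log ratios gave 11 higher and 3 lower members at an unadjusted p under 0.05, 10 below Con and a median of 0.12. Centring on the median gave 11, 3, 11 and 0.11. Removing the GC and length trend gave 10, 6, 9 and -0.00030. Libraries with the same number did not deviate together (correlations of 0.13, -0.01 and -0.17 for numbers 1, 2 and 3): the fit with the replicate number as a block gave 7 lower members at an unadjusted p under 0.05, and the block with the GC trend removed gave 6, with 9 below Con and a median of -0.00030.

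With single libraries left out, members past the adjusted threshold numbered 0 to 17 (17 without Con replicate 3, 0 in the other fits). Higher members at an unadjusted p under 0.05 numbered 1 (without GLUP replicate 1) to 7 (without Con replicate 3), and lower ones 3 (without GLUP replicate 1 or 2) to 24 (without Con replicate 3). Members above Con numbered 11 to 16 and below Con 19 to 28. The shares of all tested genes moved too. Without Con replicate 3, 2.2% were higher and 16.3% lower at an adjusted p under 0.05 with limma. Without Con replicate 2, 9.21% lay above and 28.7% below Con, against 7.55% and 22.7% with all libraries. These member counts are therefore not read as particular to the members. The members' median log2 fold change ran from -0.19 (without Con replicate 3) to 0.029 (without Con replicate 1), and relative to all tested genes from 0.025 to 0.20. Of 41 named genes, 12 passed the adjusted threshold without Con replicate 3: MRPL10, MRPS2, MRPS25, MRPS34, MRPS18C, MRPL49, MRPL41, MRPL48, MRPL13, MRPL50, PTCD3 and AURKAIP1.

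Log2 fold changes that changed sign were mostly small. With the trimmed mean of log ratios they became 0.28 for MRPL3, 0.12 for MRPL16, 0.083 for MRPL37, 0.026 for MRPL40, 0.18 for MRPL44, 0.28 for MRPL58, 0.10 for MRPS35, 0.093 for MRPL23, 0.26 for MRPL45, 0.20 for MRPL39, 0.28 for DAP3, 0.14 for CHCHD1 and 0.11 for GADD45GIP1. Centring gave 0.26 for MRPL3, 0.090 for MRPL16, 0.049 for MRPL37, 0.19 for MRPL44, 0.25 for MRPL58, 0.093 for MRPS35, 0.12 for MRPL23, 0.24 for MRPL45, 0.21 for MRPL39, 0.25 for DAP3, 0.11 for CHCHD1 and 0.093 for GADD45GIP1. Removing the GC trend, with or without the block, gave 0.47 for MRPL3, -0.25 for MRPL4, -0.15 for MRPL12, 0.31 for MRPL44, 0.0053 for MRPL58, 0.39 for MRPS35, 0.34 for MRPL45, 0.45 for MRPL39, 0.31 for DAP3 and 0.055 for CHCHD1. With single libraries left out, values ran from -0.20 to 0.23 for MRPL3, -1.03 to 0.26 for MRPL37, -0.19 to 0.066 for MRPL44, -0.13 to 0.088 for MRPL58, -0.39 to 0.081 for MRPS35, -0.16 to 0.10 for MRPL45, -0.30 to 0.079 for MRPL39, -0.10 to 0.79 for MRPL2, -0.64 to 0.55 for MRPL4, -0.14 to 0.23 for MRPL11, -0.63 to 0.87 for MRPL12, -0.10 to 0.20 for MRPL51, -0.10 to 0.10 for MRPS27, -0.18 to 0.40 for MRPS18B and -0.094 to 0.10 for DAP3.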
